A study of Sus scrofa with 9 samples.

Results

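Transcripts of 35 genes of macroautophagy were followed in the livers of pigs with a diabetes caused by a mutant insulin gene and of wild type pigs. The genes were taken by symbol from the deposited count table, in which 29837 symbols are listed, and all 35 were present. They cover the initiation complex, the phosphatidylinositol 3-kinase complex, the proteins that bring membrane and lipid to the growing autophagosome, the conjugation enzymes, the ATG4 proteases, the ATG8 family, 3 cargo receptors and the transcription factors TFEB and TFE3. All 35 passed the filter on low counts, as 14100 genes of the table did.

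The MIDY group (mutant INS gene-induced diabetes of youth) held 4 pigs that carry a C94Y transgene, and the WT group held 5 wild type pigs. All were female, 2 years old and fed daily. Diabetic animals received short-acting and long-acting insulin, so the effects of the transgene and of the insulin treatment cannot be told apart, and the feeding state at sampling is not given in the sources used here. Ribosomal RNA was depleted from the total RNA of 1 liver for each library. The SDs given therefore hold variation from pig to pig together with that of sampling, library preparation and counting.

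Macroautophagy encloses cytoplasm in a double membrane and delivers it to lysosomes. ULK kinases start the process and a phosphatidylinositol 3-kinase complex marks the membrane. WIPI proteins read that mark, ATG2 proteins carry lipid into the membrane that ATG9 vesicles seed, and ATG8 proteins (LC3 and GABARAP) are coupled to it and bind cargo receptors. In liver the process supplies amino acids and lipid during fasting and is held down by insulin through mTORC1. Much of its control acts on proteins, which transcript counts do not measure.

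Library totals lay between 14115415 and 19533463 counts. The totals, the share of the ribosomal RNA gene RN18S (6.96 to 11.4% of counts) and the share of the 10 most abundant genes did not separate MIDY from WT (lowest adjusted p = 0.571 over 3 measures, exact permutation over 126 splits, two-sided). All 8 hepatocyte markers examined, ALB and APOA1 among them, were measured, with a summed level of 108034 to 167512 CPM (counts scaled to a common library size). WT replicates 1 and 2 lay apart from the other WT libraries on the first 2 principal components of the 500 most variable genes: WT replicate 1 was the highest WT library on the first (0.90, against -20.0 to -11.8 for the other 4), and WT replicate 2 lay lowest on the second (-25.2, against -3.90 to 9.72 for the other WT libraries). On the first component the MIDY libraries lay at 6.51 to 24.1, so WT replicate 1 was the WT library nearest to MIDY. Because WT replicates 1 and 2 lay apart, the main results are also given without this pair.

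Of the 35 transcripts 1 was called higher in MIDY liver and none was called lower. ATG2A, a lipid transfer protein that feeds the growing autophagosome membrane, was 1.83 times as high in MIDY as in WT liver. In edgeR's quasi-likelihood test 115 of 14100 genes were called higher, or 0.816%, and 50 were called lower, or 0.355%, at an adjusted p below 0.05. Both directions together made 1.17%, beside 1 of the 35 members. These counts over all genes moved with single libraries, from 34 higher and 4 lower without MIDY replicate 2 to 152 higher and 107 lower without WT replicate 1. At an unadjusted p below 0.05, 5 members were higher and 2 lower, 20.0% of the 35, beside 16.1% of all genes tested. DESeq2 and limma voom likewise called ATG2A alone among the members, and 0 members lower. The groups did not overlap for 3 members, ATG2A and WIPI2 (higher, beside 3.72% of all genes) and PIK3R4 (lower, beside 2.63%), which compares with 6.35% of all genes in either direction. Of the 35 fitted log2 fold changes 26 lay above 0, against 49.3% of those of all genes, and their median was 0.10, beside -0.005 over all genes. Over the alternative settings 23 to 27 of the 35 lay above 0.

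**Figure D1:**
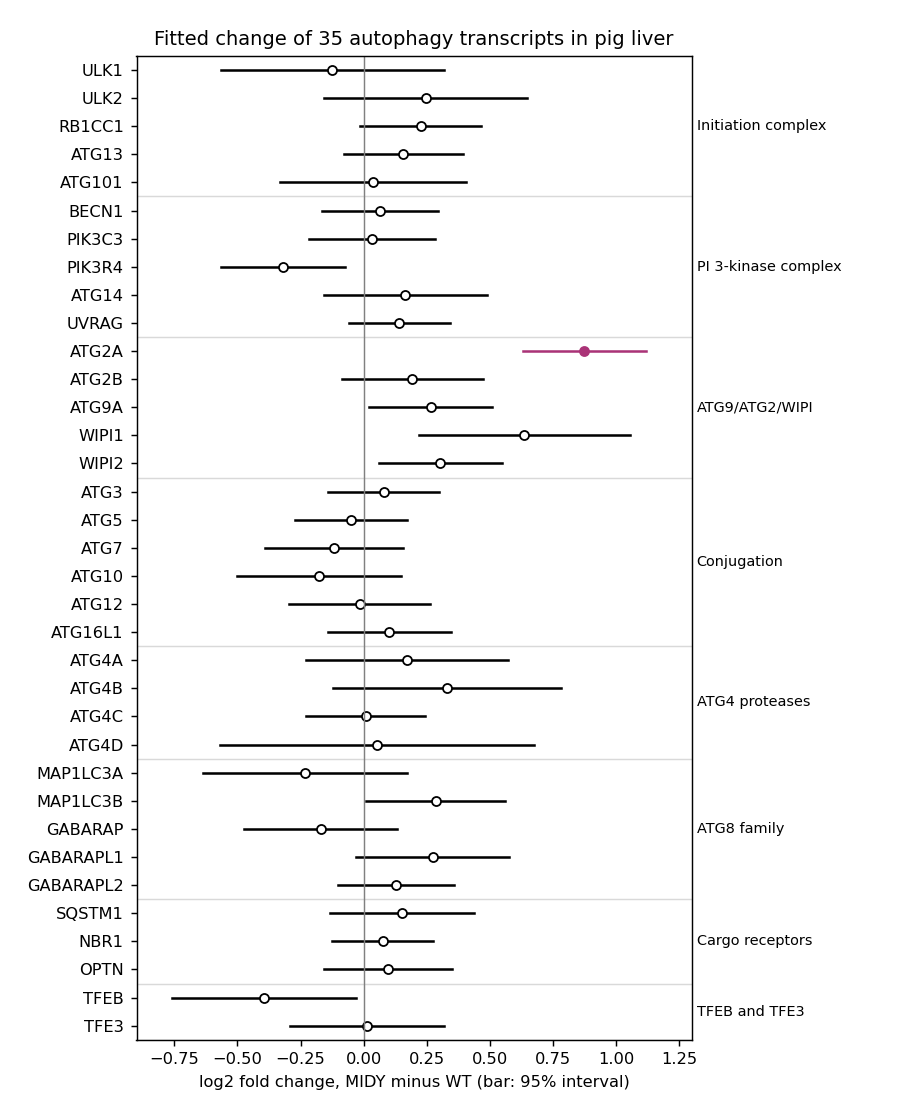
Fitted log2 fold change (MIDY minus WT, x axis) of each of the 35 transcripts, grouped by role, with bars for the 95% interval of the edgeR fit. ATG2A is the filled point, the 1 member called at an adjusted p below 0.05; the open points are the 34 members that were not called.

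ATG2A, on chromosome 2 (7261819 to 7282614 of Sscrofa11.1), stood at 31.0, 36.9, 33.4 and 27.4 CPM in MIDY replicates 1 to 4. In WT replicates 1 to 5 it stood at 17.7, 16.5, 19.3, 15.8 and 18.5 CPM. The lowest MIDY library lay above the highest WT library, and the WT libraries spread little. Raw counts were 497, 532, 634 and 523 in MIDY and 255, 330, 280, 250 and 327 in WT. The mean was 17.6 ± 1.45 CPM in WT (SD, n = 5) and 32.2 ± 4.00 CPM in MIDY (SD, n = 4), a log2 fold change of 0.87 ± 0.11 (SE; 95% interval 0.63 to 1.12; edgeR adjusted p = 0.00451), and all 4 MIDY libraries showed this direction. It ranked 10 by p among the 14100 genes. With 1 library left out at a time it was called 9 of 9 times, with log2 fold changes of 0.80 to 0.94 and the highest adjusted p at 0.0215 (edgeR). Without WT replicates 1 and 2 together the change was 0.84 ± 0.14 (SE; edgeR adjusted p = 0.0376). No other gene model of the RefSeq annotation overlaps ATG2A.

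ATG2B, the second ATG2 lipid transfer protein (chromosome 7, 117506298 to 117586651), was not called. It stood at 53.3, 50.1, 69.2 and 63.7 CPM in MIDY replicates 1 to 4 and at 51.2, 46.2, 47.8, 49.2 and 64.1 CPM in WT replicates 1 to 5 (log2 fold change 0.19 ± 0.13 SE; edgeR adjusted p = 0.494). WT replicates 1 and 5 lay within the MIDY range, and the groups overlapped. The ratio of the raw counts of ATG2A to those of ATG2B needs no scaling between libraries, and its change between groups does not depend on the lengths of the genes. That ratio was 0.582, 0.737, 0.483 and 0.431 in MIDY and 0.346, 0.357, 0.404, 0.321 and 0.288 in WT, again without overlap. It was 1.60 times as high in MIDY. This pair and 5 other pairs of related members were chosen after the values were seen, so their ratios are given as a description, without p-values.

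The other proteins of membrane supply had fitted values above 0 without being called. WIPI1, which binds the lipid mark of the autophagosome membrane (chromosome 12, 11715332 to 11752009), stood at 14.2, 20.1, 14.8 and 12.01 CPM in MIDY and 12.1, 12.4, 8.70, 6.998 and 8.76 CPM in WT. The fitted log2 value of 0.64 ± 0.19 (SE) was the second largest of the 35 and was not called (edgeR adjusted p = 0.133). MIDY replicate 4 lay just below WT replicates 1 and 2, which gave the overlap. Without those WT libraries the value was 0.90 ± 0.19 (SE; edgeR adjusted p = 0.0748), and without MIDY replicate 2 it was 0.48 ± 0.19 (SE; edgeR adjusted p = 0.329). Over all alternatives the adjusted p of WIPI1 ran from 0.0598 with DESeq2 to 0.329, so it was called in none. Its gene model shares 80 bases with that of ARSG.

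WIPI2, which brings the conjugation machinery to the membrane (chromosome 3, 3800170 to 3830973), stood at 24.3, 20.8, 24.2 and 22.5 CPM in MIDY and 18.8, 19.2, 14.98, 19.9 and 19.9 CPM in WT. The groups did not overlap, although MIDY replicate 2 exceeded the highest WT library by less than 1 CPM (log2 fold change 0.30 ± 0.11 SE; edgeR adjusted p = 0.211). ATG9A, the membrane protein of the seed vesicles, stood at 60.3, 49.6, 48.8 and 43.5 CPM in MIDY and 40.2, 45.1, 45.0, 37.0 and 42.8 CPM in WT (0.27 ± 0.11; edgeR adjusted p = 0.268). MIDY replicate 4 was the library that fell among the WT values. All 5 members of this role thus had values above 0, and 4 of them an unadjusted p below 0.05, where 8.15% of all genes were higher at that threshold. The count stands as a description, since the roles were drawn up with earlier results known.

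**Figure D2:**
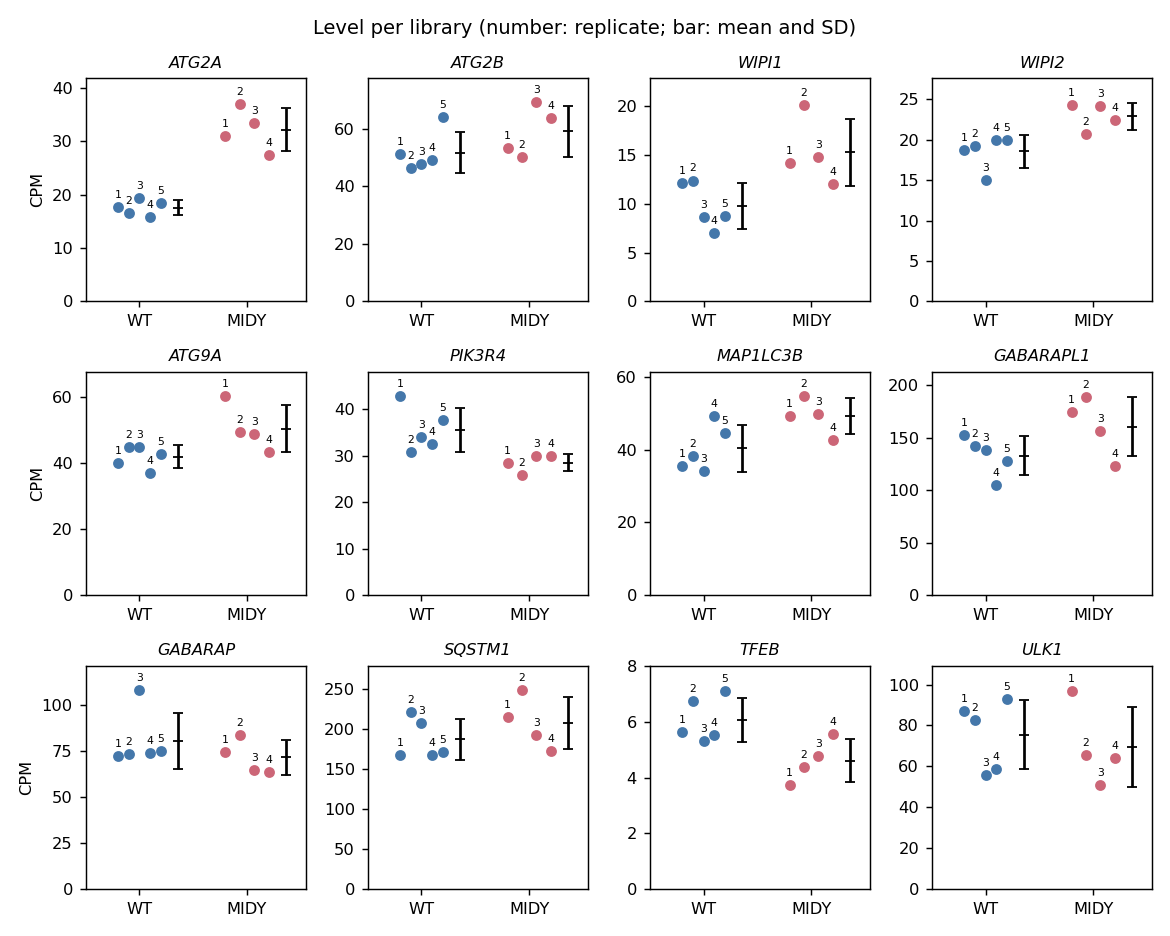
Level in CPM (y axis, from 0) of 12 members in each WT (blue) and MIDY (red) library, with the replicate number above each point and the mean and SD beside it. The MIDY points lie above all WT points for ATG2A and WIPI2 and below them for PIK3R4, while the other 9 members shown overlap.

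In the initiation complex none of 5 transcripts was called. ULK1, the kinase that starts autophagosome formation, stood at 96.8, 65.4, 50.9 and 64.1 CPM in MIDY and 87.0, 82.9, 56.0, 58.6 and 93.1 CPM in WT (log2 fold change -0.12 ± 0.20 SE; edgeR adjusted p = 0.821). The spread was wide in both groups, from MIDY replicate 3 as the lowest to MIDY replicate 1 as the highest of all 9 libraries, and the 95% interval ran from -0.57 to 0.32. RB1CC1, the scaffold of the complex, stood at 131, 136, 173 and 152 CPM in MIDY and 134, 119, 115, 122 and 143 CPM in WT (0.23 ± 0.11; edgeR adjusted p = 0.338). ATG13, which links ULK1 to RB1CC1, stood at 53.0, 44.1, 44.5 and 43.9 CPM in MIDY and 39.4, 37.4, 48.2, 44.4 and 38.5 CPM in WT (0.16 ± 0.11; edgeR adjusted p = 0.511). MIDY replicate 1 stood above the other libraries for ULK1 and ATG13 but was the lowest MIDY library for RB1CC1. ULK2 (0.25 ± 0.19) and ATG101 (0.04 ± 0.17 log2, SE) were not called either, and the level of ULK2 was highest in MIDY replicate 4 (17.4 CPM).

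In the phosphatidylinositol 3-kinase complex 4 of 5 fitted values lay above 0 and 1 below. PIK3R4, the regulatory kinase-like subunit (chromosome 13, 1730988 to 1815555), stood at 28.5, 25.8, 29.9 and 29.9 CPM in MIDY and 42.8, 30.9, 34.1, 32.6 and 37.6 CPM in WT. All 4 MIDY libraries lay below all 5 WT libraries, with a gap of about 1 CPM. Its log2 fold change of -0.32 ± 0.11 (SE) did not pass the test (edgeR adjusted p = 0.198, and 0.137 to 0.402 over the alternatives). The catalytic subunit PIK3C3 had a log2 fold change of 0.03 ± 0.11 (SE). UVRAG, which takes the place of ATG14 in the complex that acts on endosomes, stood at 30.3, 33.7, 29.6 and 31.6 CPM in MIDY and 28.9, 25.6, 28.5, 29.8 and 29.1 CPM in WT (0.14 ± 0.09; edgeR adjusted p = 0.483). BECN1, the scaffold of the complex, stood at 18.4, 18.3, 19.9 and 18.1 CPM in MIDY and 20.0, 19.0, 15.5, 17.0 and 17.8 CPM in WT (0.06 ± 0.11; edgeR adjusted p = 0.827). The MIDY values of BECN1 lay within the WT range. ATG14, the subunit specific to autophagy, had a log2 fold change of 0.17 ± 0.15 (SE), and its lowest library was WT replicate 3 (11.9 CPM).

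The 6 conjugation genes, whose products couple ATG8 proteins to lipid, were not called and had fitted values from -0.18 to 0.10 on the log2 scale. ATG10, the enzyme that joins ATG12 to ATG5, stood at 5.80, 8.19, 8.74 and 7.87 CPM in MIDY and 8.83, 9.74, 8.83, 8.38 and 7.46 CPM in WT (-0.18 ± 0.15; edgeR adjusted p = 0.607). MIDY replicate 1 was its lowest library, and the groups overlapped. ATG7, the activating enzyme of both couplings, stood at 13.8, 12.3, 12.4 and 14.3 CPM in MIDY and 16.1, 13.7, 16.5, 12.1 and 13.2 CPM in WT (-0.12 ± 0.13; edgeR adjusted p = 0.696). ATG3 (0.08 ± 0.10), ATG5 (-0.05 ± 0.10), ATG12 (-0.02 ± 0.13) and ATG16L1 (0.10 ± 0.11 log2, SE) were not called. The gene models of HRH1 and VGLL4 overlap that of ATG7, so its counts are uncertain.

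The ATG4 proteases, which trim ATG8 proteins and release them from the membrane, were not called. ATG4B stood at 4.24, 2.98, 2.69 and 3.57 CPM in MIDY and 2.16, 2.60, 3.38, 2.65 and 2.60 CPM in WT (0.33 ± 0.21; edgeR adjusted p = 0.464). ATG4A stood at 6.74, 5.55, 5.00 and 6.08 CPM in MIDY and 5.01, 5.75, 6.83, 4.29 and 4.07 CPM in WT (0.17 ± 0.18; edgeR adjusted p = 0.697). Both genes had overlapping groups, with WT replicate 3 the highest WT library for each. ATG4D, with 18 to 59 counts per library, had the widest standard error of the members not called (0.05 ± 0.29), and ATG4C had a value of 0.01 ± 0.11 (log2, SE). Other gene models overlap all 4 of these genes.

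In the ATG8 family MAP1LC3B and GABARAPL1 had fitted values above 0, and MAP1LC3A and GABARAP below 0. MAP1LC3B, the LC3 form most used as a marker of autophagosomes (chromosome 6, 1919879 to 1941069), stood at 49.4, 54.8, 49.99 and 42.8 CPM in MIDY and 35.6, 38.3, 34.1, 49.3 and 44.6 CPM in WT. WT replicates 4 and 5 lay above MIDY replicate 4, and the log2 fold change of 0.29 ± 0.13 (SE; 95% interval 0.01 to 0.56) was not called (edgeR adjusted p = 0.291). GABARAPL1 (chromosome 5, 61758127 to 61767427) stood at 174, 188, 157 and 123 CPM in MIDY and 153, 142, 138, 104 and 127 CPM in WT (0.27 ± 0.14; edgeR adjusted p = 0.366). Its MIDY libraries 1 to 3 lay above all WT libraries and MIDY replicate 4 below 4 of the 5. GABARAP stood at 74.5, 83.4, 64.3 and 63.7 CPM in MIDY and 72.2, 73.2, 108, 74.0 and 74.8 CPM in WT (-0.17 ± 0.14; edgeR adjusted p = 0.594). WT replicate 3 alone stood far above the rest, and without it the log2 fold change of GABARAP was -0.04 (edgeR adjusted p = 0.898). MAP1LC3A (-0.23 ± 0.19) and GABARAPL2 (0.13 ± 0.11 log2, SE) were not called. Because these genes are related copies, reads that fit several of them could shift their levels.

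The ratios within a library of the 5 other pairs overlapped between the groups. The ratio of GABARAP to GABARAPL1 was 0.411 to 0.517 in MIDY and 0.473 to 0.781 in WT. MAP1LC3A to MAP1LC3B was 0.169 to 0.270 in MIDY and 0.213 to 0.421 in WT, and TFEB to TFE3 was 0.275 to 0.429 in MIDY and 0.371 to 0.551 in WT. For these 3 pairs the MIDY mean lay below the WT mean. ULK1 to ULK2 was 3.69 to 9.95 in MIDY and 5.34 to 8.69 in WT, also with a lower MIDY mean (5.67 against 6.79). WIPI1 to WIPI2 was 0.534 to 0.970 in MIDY and 0.351 to 0.644 in WT, with a higher MIDY mean (0.675 against 0.532).

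Of the cargo receptors, which tie ubiquitin-tagged material to ATG8 proteins, none was called. SQSTM1, also known as p62 (chromosome 2, 78752768 to 78763998), stood at 215, 248, 192 and 173 CPM in MIDY and 167, 220.3, 207, 167 and 171 CPM in WT (log2 fold change 0.15 ± 0.13 SE; 95% interval -0.13 to 0.44; edgeR adjusted p = 0.617). WT replicates 2 and 3 lay among the MIDY values. OPTN stood at 81.2, 64.6, 71.5 and 60.5 CPM in MIDY and 69.0, 74.8, 64.3, 57.6 and 58.9 CPM in WT (0.10 ± 0.12; edgeR adjusted p = 0.734). NBR1 varied least between libraries of the 3, from 218 to 258 CPM (0.08 ± 0.09; edgeR adjusted p = 0.738). The ends of MRNIP and BRCA1 overlap SQSTM1 and NBR1.

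TFEB, the transcription factor that switches on lysosome and autophagy genes when mTORC1 is inactive (chromosome 7, 36870240 to 36920887), had the lowest fitted value of the 35. It stood at 3.74, 4.37, 4.79 and 5.56 CPM in MIDY and 5.63, 6.74, 5.31, 5.55 and 7.12 CPM in WT, from raw counts of 60 to 106 and 77 to 135. Only MIDY replicate 4 reached the WT range. The log2 fold change of -0.39 ± 0.17 (SE; 95% interval -0.76 to -0.03) was not called (edgeR adjusted p = 0.275, and 0.190 to 0.467 over the alternatives). TFE3, its relative, stood at 13.6, 11.5, 15.6 and 13.0 CPM in MIDY and 10.2, 14.9, 12.9, 14.9 and 13.4 CPM in WT (0.01 ± 0.14; edgeR adjusted p = 0.977). The TFE3 levels of the groups covered each other.

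The 95% intervals, each taken for 1 gene by itself, bounded the size of change of the members that were not called. Of the 34 that were not called, 33 had a 95% interval inside a change of 2 times in either direction, with WIPI1 outside it (upper bound 1.06 on the log2 scale). For 28 of the 34 the interval lay inside a change of 1.5 times, and the exceptions were ULK2, WIPI1, ATG4B, ATG4D, MAP1LC3A and TFEB. The standard errors of the 34 ran from 0.09 to 0.29 with a median of 0.13.

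Libraries differed in how many members they held at an extreme. MIDY replicates 1 and 2 were the highest of the 9 libraries for 8 and 9 members, and WT replicates 3 and 4 the lowest for 9 and 7. Extremes were not counted over all genes tested, so whether these counts are particular to the members was not tested. MIDY replicate 2 was the highest library for ATG2A, WIPI1, MAP1LC3B, GABARAPL1 and SQSTM1, and MIDY replicate 4 was the lowest MIDY library for the same 5. Relative to its mean over the libraries, the median member lay between 0.011 and 0.094 in the MIDY libraries and between -0.057 and -0.001 in the WT libraries on the log2 scale. The median of all genes tested stayed within 0.01 of 0 in each library.

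**Figure D3:**
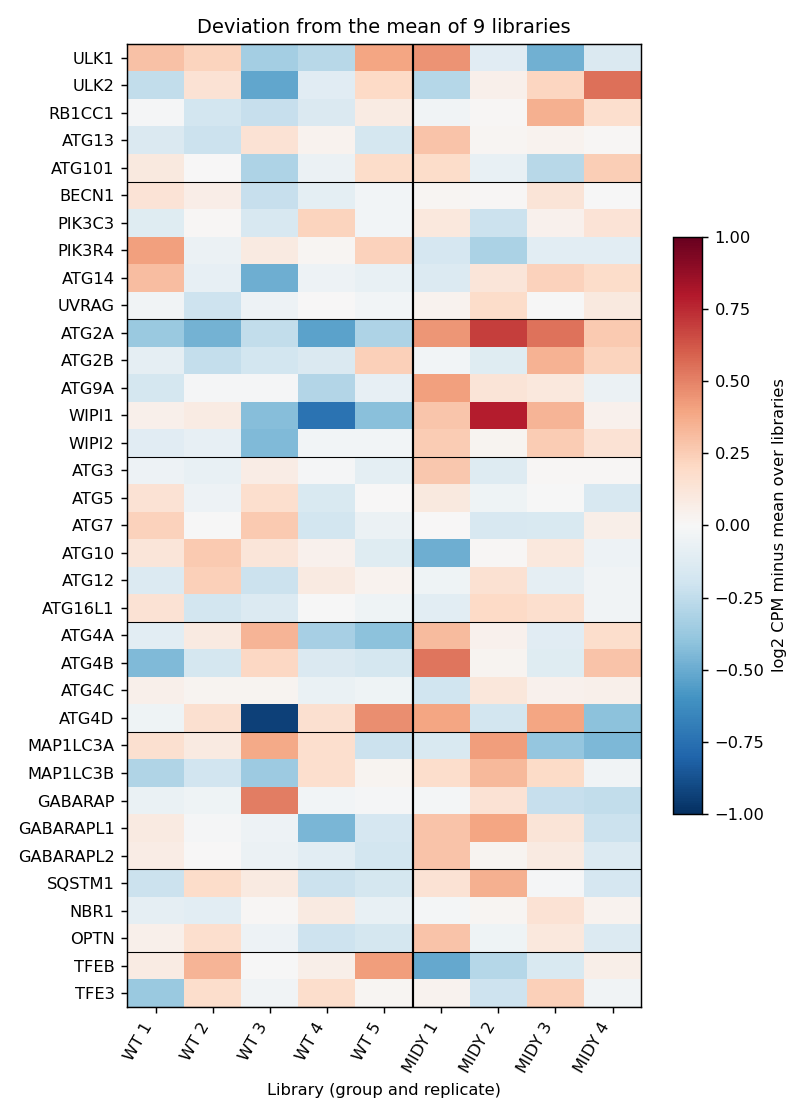
Each of the 35 members (rows, grouped by role) in each library (columns), coloured by log2 CPM minus the mean of that member over the 9 libraries. ATG2A is the row that is below its mean in all 5 WT columns and above it in all 4 MIDY columns by a wide margin, while most other rows mix both colours within a group.

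Levels per library of marker lists for other liver cells were compared because fewer cells of a type and less RNA per cell cannot be told apart in whole tissue. Of 6 T and NK cell markers 1 fell, the T cell adhesion receptor CD2. Its mean was 9.07 ± 2.12 CPM in WT (SD, n = 5) and 4.86 ± 0.42 CPM in MIDY (SD, n = 4), with an edgeR adjusted p = 0.0377. For the whole list their summed level was 14.3 to 25.0 CPM in WT and 9.55 to 11.7 CPM in MIDY. Of 7 stellate cell and fibroblast markers 1 fell (COL1A2), with sums of 328 to 546 CPM in WT and 248 to 364 CPM in MIDY. Whether the calls of CD2 and COL1A2 held with libraries left out was not examined. No marker was called among 7 endothelial, 7 Kupffer cell, 4 biliary and 8 hepatocyte markers. The sums were 637 to 767 CPM in WT and 677 to 752 CPM in MIDY for endothelial cells, and 455 to 694 CPM and 400.4 to 499 CPM for Kupffer cells. B and plasma cell markers summed to 20.2 to 50.3 CPM in WT and 14.0 to 20.8 CPM in MIDY, and erythroid markers to 68.7 to 1488 CPM and 161 to 535 CPM, with none called. Of the markers of tissues that could be carried in, MYH7 of muscle and PNLIP of pancreas had 0 counts in all libraries. The 3 muscle markers together reached at most 0.350 CPM. CPA1 of the pancreas ranged from 0.276 to 2.16 CPM in WT and from 0.763 to 3.88 CPM in MIDY and was not called (log2 fold change 0.69 ± 0.58 SE; edgeR adjusted p = 0.605). The 3 adipocyte markers summed to 1.11 to 1.38 CPM in WT and 1.52 to 2.93 CPM in MIDY, without overlap. Nearly all of that sum was PLIN1, which coats lipid droplets, with 251 counts over all libraries. ADIPOQ had 1 count and LEP 4. PLIN1 was the only adipocyte marker tested and was not called (log2 fold change 0.90 ± 0.25 SE; edgeR adjusted p = 0.108). The fitted values of 6 of 6 T and NK cell markers and of 6 of 7 stellate cell and fibroblast markers lay below 0, RGS5 being the exception (log2 fold change 0.46 ± 0.38 SE). Also below 0 were 6 of 7 Kupffer cell markers, with MARCO the exception (log2 fold change 0.98 ± 0.29 SE, edgeR adjusted p = 0.138). The MARCO groups did not overlap. Values below 0 were found for 5 of 7 endothelial, 3 of 4 biliary, 3 of 3 erythroid and 3 of 8 hepatocyte markers. The endothelial exceptions were STAB2 (0.38 ± 0.12 SE; edgeR adjusted p = 0.144) and KDR (0.001 ± 0.10 SE). The biliary exception was EPCAM, whose groups did not overlap (0.69 ± 0.26 SE; edgeR adjusted p = 0.224). Values below 0 were also found for 2 of 2 tested B and plasma cell markers and 2 of 2 tested neutrophil markers. The part of cell makeup in the rise of ATG2A was not tested.

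Related genes of the pathway gave 1 further call. In 5 lists of 126 genes, of which 123 were tested and 3 were not analysed here, 1 was called higher and 0 were called lower, a share near that of all genes. The groups did not overlap for 4 of the 123 in the higher direction and 4 in the lower (STBD1, FNIP2, PLEKHM1 and GLB1). Of all genes 3.72% were higher and 2.63% lower without overlap. Among 20 other receptors of selective autophagy BNIP3 rose, a receptor of mitophagy in the outer mitochondrial membrane that hypoxia also induces. It stood at 73.9, 81.6, 74.0 and 70.7 CPM in MIDY and 53.0, 50.5, 55.4, 51.8 and 52.4 CPM in WT (log2 fold change 0.51 ± 0.09 SE; edgeR adjusted p = 0.0201). The groups were far apart, but with 1 library left out at a time BNIP3 passed 5 of 9 times. Taking out MIDY replicate 2 gave an edgeR adjusted p = 0.0694 and taking out MIDY replicate 3 one of 0.0569. The corresponding edgeR adjusted p was 0.0530 when WT replicate 2 was dropped, 0.0516 when WT replicate 5 was, and 0.0789 when WT replicates 1 and 2 both were. In this receptor list 18 of 20 fitted values lay above 0 (median 0.13).

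STBD1, which binds glycogen and was named after its values were seen, had the lowest fitted value among those receptors. It stood at 18.2, 18.2, 20.5 and 20.1 CPM in MIDY and 27.3, 42.8, 26.1, 25.8 and 24.7 CPM in WT, with no overlap (-0.61 ± 0.16; edgeR adjusted p = 0.0889). WT replicate 2 stood above the rest, and without it the value was -0.43 (edgeR adjusted p = 0.0966). DESeq2 called it lower (DESeq2 adjusted p = 0.0234).

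In the list of other autophagy machinery 0 of 17 tested genes were called and the median log2 fold change was -0.01. EPG5, a tether between autophagosomes and lysosomes, had a value of 0.33 ± 0.13 and PLEKHM1, an adaptor for lysosome fusion, one of -0.31 ± 0.13 (log2 ± SE; edgeR adjusted p = 0.234 and 0.257). Of 35 genes of mTORC1 and AMPK control 0 were called (median -0.02). MTOR, the kinase of mTORC1, stood at 40.1, 36.6, 35.1 and 36.9 CPM in MIDY and 29.8, 28.3, 33.3, 31.5 and 29.0 CPM in WT, without overlap but not called (0.29 ± 0.09; edgeR adjusted p = 0.154). FNIP2, which acts with folliculin on the Rag GTPases, had a value of -0.28 ± 0.10 (log2 ± SE; edgeR adjusted p = 0.204).

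Among lysosome genes, many of which TFEB can activate, 0 of 41 tested were called. Their median log2 fold change was -0.01 and 22 of 41 values lay below 0. GLB1, the lysosomal beta-galactosidase, had a value of -0.39 ± 0.14 and ATP6V1B2, a subunit of the proton pump, one of 0.28 ± 0.12 (log2 ± SE; edgeR adjusted p = 0.183 and 0.260). The cathepsin CTSD ranged from 24.9 to 62.6 CPM in MIDY and from 29.8 to 74.1 CPM in WT, named here after its values were seen for its wide spread. Of 10 tested regulators of transcription 0 were called. PPARA, a nuclear receptor of fasting that can induce autophagy genes, stood at 61.5, 46.6, 41.8 and 49.7 CPM in MIDY and 20.4, 33.3, 24.4, 31.6 and 39.6 CPM in WT (0.74 ± 0.18; edgeR adjusted p = 0.0756). Its groups did not overlap, and DESeq2 called it higher (DESeq2 adjusted p = 0.0100). TFEC, a relative of TFEB, had a value of -0.36 ± 0.12 (log2 ± SE; edgeR adjusted p = 0.178).

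**Figure D4:**
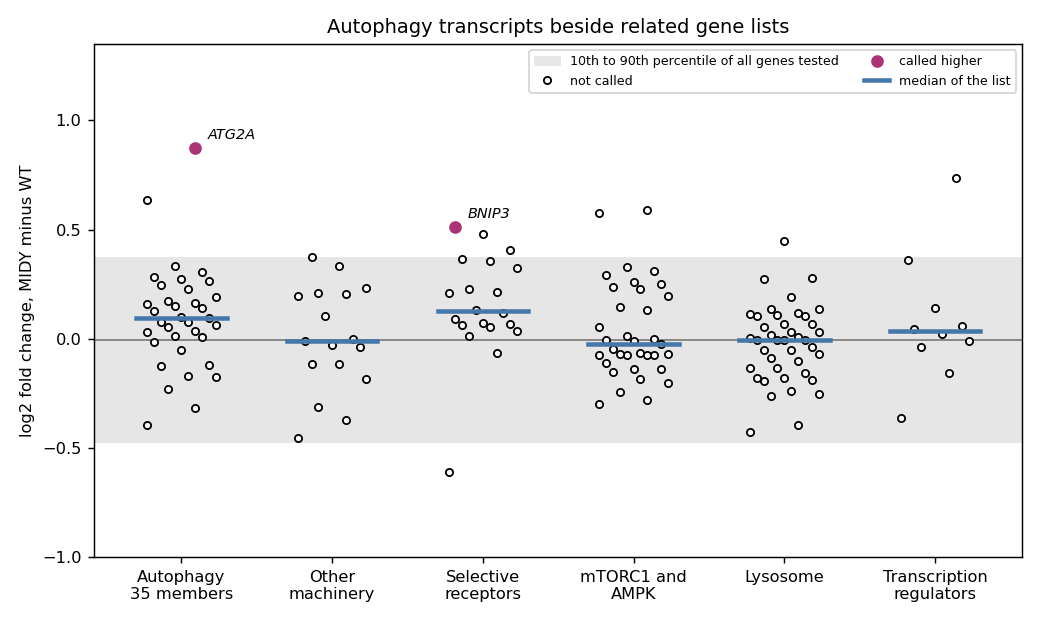
Log2 fold change (MIDY minus WT, y axis) of each tested gene in the 35 members and in 5 related lists, with blue lines at the list medians and grey shading from the 10th to the 90th percentile of all genes tested (-0.47 to 0.37). ATG2A and BNIP3 are the 2 filled points, called at an adjusted p below 0.05, and the list medians run from -0.02 to 0.13.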

How the data were processed

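RNA sequencing of liver from 4 MIDY and 5 WT pigs was analysed. Trizol was used for RNA isolation and Nugen's Encore Complete kit for the libraries, per the labels' protocols. STAR, HTSeq, DESeq2 and the build Sscrofa11.1 are named per the submitters' processing notes; their versions, options and strand handling are not stated there. What the authors deposited is 1 table of raw read counts with gene symbols as its lines and 1 column for each library. Without known strand handling, reads of overlapping genes cannot be told apart; 11 of the 35 members overlap another gene model. Positions come from the RefSeq gene table of Sscrofa11.1, which held all 35 members. Levels were compared within a gene only, since transcript lengths were not used here. No sequences were used here.

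Counts were filtered with filterByExpr, scaled with TMM factors and tested with the robust quasi-likelihood model of edgeR 4.0.16 (R 4.3.3) on the whole table, with a term for the group. P-values are two-sided, with Benjamini-Hochberg adjustment over 14100 genes, and calls were made where the adjusted value was under 0.05. CPM are counts per 1000000 of the effective (TMM-scaled) library size. Standard errors were derived from the F statistic of each gene. The fit was tested on simulated data. Library totals and shares were compared by exact permutation over 126 splits. Ratios of 2 members were permuted in the same way, but their p-values are not given, because the pairs were chosen after the values were seen. The members and lists were chosen with earlier results of these data known, so no list test and no p adjusted over the members is given.

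Values per library are given for called members, for the 2 members of each role with the smallest p and for ULK1, BECN1, MAP1LC3B, GABARAPL1, SQSTM1 and TFEB, and, where the results turned on them, for ATG2B, WIPI2, ATG9A and GABARAP, added after their values were seen. From each related list up to 4 called genes are named, or the 2 with the smallest p where none was called. The alternatives were RLE factors, total counts alone, all genes kept, genes kept only where 4 libraries reached 1 CPM, limma 3.58.1 voom with sample weights, DESeq2 1.42.0, the 10 most abundant genes taken out, each library left out in turn, and WT replicates 1 and 2 left out together.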

Additional observations from a re-analysis of the deposited data

Results flagged for a closer look

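In 4 of 70 tests of a group (35 members in 2 groups), 1 library lay far from the rest of its group; chance gives about 1 in 20. ATG13 stood at 53.0 CPM in MIDY replicate 1, where the next MIDY library had 44.5 CPM. ATG2B stood at 64.1 CPM in WT replicate 5, with 51.2 CPM in the next WT library. WIPI2 stood at 14.98 CPM in WT replicate 3, with 18.8 CPM in the next WT library. GABARAP stood at 108 CPM in WT replicate 3, with 74.8 CPM in the next WT library.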

How the results depend on the processing

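ATG2A was the only member called, and was called, in all 17 alternatives, and 0 members were called lower in any. The sign of the fitted value was the same in all alternatives for 27 of the 35 members and differed in some for 8, none of them called. Leaving out 1 library gave 34 to 152 genes higher and 4 to 107 lower over all genes, in place of 115 and 50, and 0 to 1 higher in the related lists. Apart from MIDY replicates 1 and 4, taking out any 1 library moved at least 1 of the counts over all genes by over 1.5 times. Without WT replicates 1 and 2 these were 42, 24 and 0. DESeq2 called 355 genes higher and 284 lower, and in the related lists 2 higher (BNIP3 and PPARA) and 1 lower (STBD1). Limma voom called 82 lower. The cause of these differences was not tested. No paired analysis was possible because the labels do not pair the pigs of the groups. The replicate numbers used here follow the order of the samples within each group. The standard error was largest for ATG4D and ATG4B, which had few counts, and next largest for ULK1, which varied widely within both groups.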
